A study of Mus musculus with 6 samples.

Results

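The genes described here are the receptors for insulin and the insulin-like growth factors (*Igf1r* and *Insr*), the substrates that dock on those receptors (*Irs1* and *Irs2*) and 6 genes for IGF-binding proteins (*Igfbp2* to *Igfbp7*). They were taken by symbol from the deposited count table, where each had 1 row, and are 10 of its 18537 known-gene clusters. Insulin and the IGFs bind receptor tyrosine kinases at the cell surface, which phosphorylate IRS proteins and through them recruit phosphoinositide 3-kinase. IGF-binding proteins are secreted, hold IGFs outside the cell, and either keep them from the receptor or release them when proteases cleave the complex. In the mammary gland, IGF-I is needed for ductal growth at puberty, and IGFBP5 is known for its abundance when the gland regresses after weaning.

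Luminal progenitors were sorted from the mammary glands of adult nulliparous mice, and their poly(A)+ RNA was sequenced to compare cells with and without the receptor ROBO1. There were 3 *Robo1+/+* libraries (replicates gh03, gh09 and gh15) and 3 *Robo1−/−* libraries (gh06, gh12 and gh18), and each library pooled 2 animals, so that each n counts pools and not mice. The *Robo1−/−* mice were homozygous for the germline allele *Robo1tm1Matl*, which is carried by every cell of the animal, and the labels give the *Robo1+/+* mice as littermates from crosses of *Robo1+/−* parents. The sort gate was Lin−CD24loCD29+CD61+, after removal of cells that carried CD45, Ter119, CD31 or BP-1.

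The normalized values are read counts divided by 1 size factor per library, and the counts recovered from them came to 10494297 reads for gh03, 17433868 for gh09 and 14298652 for gh15. The *Robo1−/−* libraries held 12183461 reads in gh06, 15185303 in gh12 and 9727191 in gh18. A count of 0 was read as below 3 reads, which is a normalized value between 2.35 (gh09) and 4.38 (gh18) and covers counting error only.

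*Robo1*, the targeted gene, was read in every library, and the order gh03, gh09, gh15 for *Robo1+/+* and gh06, gh12, gh18 for *Robo1−/−* holds for it and for all values given by library. In *Robo1+/+* it had normalized values of 289, 574 and 541, and in *Robo1−/−* it had 130, 214 and 177. The *Robo1−/−* values were thus all lower, with a mean at 37.1% of that in *Robo1+/+*, and which exons the reads came from is not in the table. Its log2 fold change was −1.39 (95% interval −2.24 to −0.54; adjusted p = 0.858, limma), −1.44 after the GC correction described next and −1.42 without gh18.

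Replicate gh18 stood apart from the other 5 libraries. Relative to the other libraries, its log2 values were lower the higher the GC content of the transcript (Spearman's rho = −0.81 across 12437 tested genes, which are not independent replicates), with a median deviation of 0.92 in the lowest 10% of genes by GC content and −2.3 in the highest 10%. In the other libraries rho was positive, from 0.17 in gh12 to 0.61 in gh09. Each of these was set against a mean that included gh18, so the positive values do not show a GC trend of those libraries themselves. Differences are therefore also given without gh18 and after a GC correction, in which the lowess trend with GC content of each library's deviation from the gene means was taken out. For some genes, such as *Igfbp4*, *Igfbp7* and *Gsk3a*, the correction moved gh18 from the lowest library to the highest, whereas for *Irs2* it came inside the *Robo1+/+* range. Whether the correction overshot in gh18 was not tested.

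The 8 luminal progenitor markers were all detected, and in *Robo1+/+* their values summed to 96913, 111201 and 110544, and in *Robo1−/−* to 116735, 116375 and 41987, where gh18 was the low library. Most of these values came from *Krt8*, *Krt18* and *Krt19*, keratins that all luminal cells share. *Krt8* was at 11182 in gh18, just under *Krt18* (11522), and at 35984 to 43715 in the other libraries, the highest normalized value of the list there, whereas *Kit* was between 4209 and 5644 in all 6. *Itgb3*, which encodes the CD61 used in the gate, was present in every library (387 to 1317). Basal and myoepithelial markers were detected for 8 of 8 genes at a summed value of 573 to 1883, the highest value being that of *Acta2* in gh03, gh06 and gh12, *Oxtr* in gh09 and gh18 and *Krt14* in gh15. Per kb of transcript, the 5 progenitor markers other than these keratins summed to 427, 508 and 481 RPKM (reads scaled to transcript length in kb and to the recovered reads of the library) in *Robo1+/+*, and to 403, 503 and 365 in *Robo1−/−*. The 7 markers of hormone-sensing luminal cells summed to more in every library, from 679 in gh18 to 1159 in gh12. The markers thus show luminal cells with progenitor genes present, and do not set progenitors apart from hormone-sensing cells. The sums are over different genes and do not measure the share of either cell type.

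Of the 10 genes, 8 passed the filter on low reads and were tested, namely both receptors, both substrates and 4 of the 6 binding proteins. *Irs1* and *Insr* had higher values in all 3 *Robo1−/−* libraries than in any *Robo1+/+* library, and *Igfbp5* and *Igfbp7* had higher *Robo1−/−* means with overlapping libraries. *Irs2* had a lower *Robo1−/−* mean only with gh18 included, and its log2 fold change was −1.05 with gh18 and −0.08 without it. No tested gene of the whole table passed limma at an adjusted p under 0.05 (0 of 13692, 0%), so none of these differences is a call. At an unadjusted p under 0.05, limma counted 231 genes (1.69%), of which *Irs1* was the single member, while edgeR called 0 genes and DESeq2 1 at the adjusted threshold. Genotypes did not overlap for 2 of the 8 tested members, both higher in *Robo1−/−*, against 4.83% of all tested genes higher and 4.58% lower. After the GC correction the number was again 2, *Irs1* and *Igfbp7*, and again both were higher, against 3.41% of genes higher and 3.12% lower. At an unadjusted p under 0.05 with the GC correction, *Irs1* and *Igfbp7* were counted, against 1.56% of genes. Without gh18, 3 members had an unadjusted p under 0.05 (*Irs1*, *Igfbp5* and *Igfbp7*), against 4.23% of all tested genes, and 4 did not overlap, all higher, against 10.2% of genes higher and 10.1% lower with 2 libraries against 3. The median log2 fold change of the 8 was 0.28 (0.48 after GC correction, 0.22 without gh18), and that of all tested genes was 0 in each case. In bulk RNA of sorted cells, fewer cells of a type and less RNA per cell cannot be told apart.

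**Figure D1:**
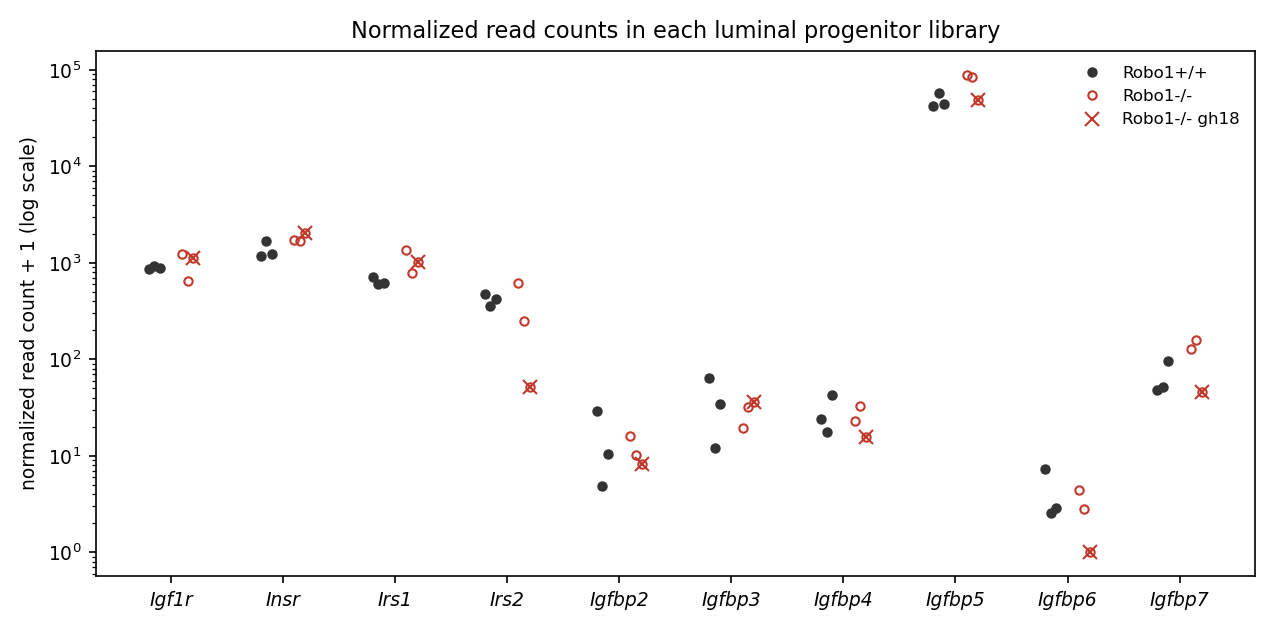
Normalized read count plus 1 (log axis) of the 10 genes in each library, with filled points for *Robo1+/+*, open points for *Robo1−/−* and a cross on replicate gh18. *Igfbp5* lies at 41977 or above in every library, and gh18 is the lowest library for *Irs2* (51.1) but the highest for *Insr* (2012).

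Both receptors were well detected, with 671 to 2141 reads in each library. *Igf1r* (kgCluster22999, chr7:75097713-75371484, NCBI37/mm9) encodes the type 1 IGF receptor, which binds IGF-I and IGF-II. In *Robo1+/+* its values were 854, 915 and 883, and in *Robo1−/−* they were 1245, 652 and 1131. The *Robo1+/+* libraries were close together, and the *Robo1−/−* libraries lay on both sides of them, with gh12 below and gh06 and gh18 above. The means were 884 ± 30.9 and 1009 ± 315 (SD, n = 3 each), a log2 fold change of 0.14 (SE 0.29; 95% interval −0.54 to 0.81; adjusted p = 0.897, limma), which was 0.42 after the GC correction, 0.03 without gh18, −0.04 without gh06 and 0.43 without gh12.

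*Insr* (kgCluster24429, chr8:3150922-3279617) encodes the insulin receptor, which can also pair with the IGF receptor in hybrids. In *Robo1+/+* its values were 1177, 1678 and 1225, and in *Robo1−/−* they were 1723, 1689 and 2012. The genotypes did not overlap, but *Robo1+/+* replicate gh09 (1678) was just under the lowest *Robo1−/−* library, gh12 (1689). The means were 1360 ± 276 and 1808 ± 178 (SD, n = 3 each), and the log2 fold change was 0.42 (SE 0.22; 95% interval −0.1 to 0.95; adjusted p = 0.858, limma). In the exact permutation test, p was 0.1, the smallest that 3 libraries against 3 can give (two-sided). Its transcript has the lowest GC content of the 10 (46.8%), and gh18 was its highest library. After the GC correction gh18 (10.61) and gh12 (10.72) were below *Robo1+/+* replicate gh09 (10.79) on the log2 scale, so the genotypes overlapped (log2 fold change 0.26; exact permutation p = 0.3), and without gh18 it was 0.35.

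The substrates differed from each other in how they varied. *Irs1* (kgCluster509, chr1:82229676-82287991) encodes insulin receptor substrate 1, an adaptor that both receptors phosphorylate. In *Robo1+/+* its values were 720, 601 and 615, and in *Robo1−/−* they were 1341, 787 and 1008. Each *Robo1−/−* library was above each *Robo1+/+* library, and gh06 was the highest. The *Robo1−/−* mean was 1045 ± 279 against 646 ± 65 in *Robo1+/+* (SD, n = 3 each), 162% of it, with a log2 fold change of 0.67 (SE 0.26; 95% interval 0.06 to 1.27; adjusted p = 0.858, limma; exact permutation p = 0.1). The difference was 0.66 after the GC correction and 0.67 without gh18. Its unadjusted p was no longer under 0.05 when gh03, gh09, gh15 or gh06 was left out, with log2 fold changes of 0.75, 0.62, 0.63 and 0.47. The annotated *Irs1* transcript shares 2822 exon bases with *Gm9747*, a gene model on the opposite strand, and 2748 of its 9070 sequences of 75 bases also occur there. The library kit, TruSeq RNA version 1, does not keep strand in its standard form, so reads of either could be counted for *Irs1*.

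*Irs2* (kgCluster24489, chr8:10986980-11008458) encodes the second widely expressed substrate. In *Robo1+/+* its values were 472, 359 and 425, and in *Robo1−/−* they were 624, 249 and 51.1. Both the highest and the lowest libraries were *Robo1−/−*, and gh18, with 35 reads, was far below the rest. The means were 419 ± 56.8 and 308 ± 291 (SD, n = 3 each), with a log2 fold change of −1.05 (SE 0.82; 95% interval −3 to 0.9; adjusted p = 0.858, limma; exact permutation p = 0.5). Without gh18 it was −0.08, after the GC correction 0.09, and without gh06 −1.87, where *Irs2* was the single member with an unadjusted p under 0.05 among 879 such genes. With 63.64% GC, *Irs2* has the highest GC content of the 10 transcripts, and after the correction gh18 (8.22) lay inside the *Robo1+/+* range of 7.89 to 8.28 on the log2 scale. *Irs2* shares 162 exon bases with *9530052E02Rik*, a long noncoding RNA gene on the opposite strand. Of the 3950 sequences of 75 bases in its transcript, 0 were shared with another gene.

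The balance of the substrates was looked at after their values were seen, so it has no test. The GC-corrected log2 difference of *Irs1* minus *Irs2* was 1.22, 1.31 and 1.12 in *Robo1+/+* and 1.92, 1.68 and 1.77 in *Robo1−/−*. All *Robo1−/−* libraries were above all *Robo1+/+* libraries, with means of 1.79 ± 0.12 and 1.22 ± 0.1 (SD, n = 3 each). Without the correction, the ratio of *Irs1* to *Irs2* per kb of transcript was 0.671, 0.737 and 0.637 in *Robo1+/+* and 0.946, 1.39 and 8.69 in *Robo1−/−*, where gh18 was far above the others. The ratio of *Insr* to *Igf1r* per kb did not separate the genotypes, at 0.685 ± 0.116 in *Robo1+/+* and 0.857 ± 0.275 in *Robo1−/−* (SD, n = 3 each).

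Among the binding proteins, 1 gene gave nearly all of the reads. *Igfbp5* (kgCluster424, chr1:72904506-72921458) encodes a binding protein that also attaches to extracellular matrix. In *Robo1+/+* its normalized values were 41977, 57550 and 44484, and in *Robo1−/−* they were 89197, 84056 and 48673. Replicates gh06 and gh12 were above all *Robo1+/+* libraries, whereas gh18 lay inside the *Robo1+/+* range. The means were 48003 ± 8362 and 73975 ± 22063 (SD, n = 3 each), and the log2 fold change was 0.59 (SE 0.31; 95% interval −0.14 to 1.31; adjusted p = 0.858, limma; exact permutation p = 0.2). It was 0.58 after the GC correction, with gh18 still inside the *Robo1+/+* range (15.58 against 15.37 to 15.78 on the log2 scale), and 0.86 without gh18, where its unadjusted p was under 0.05. Ranked by normalized value among all clusters, *Igfbp5* was number 7, 3 and 5 in *Robo1+/+* and number 2, 1 and 6 in *Robo1−/−*, so that in gh12 no cluster had a higher value. These ranks are not scaled to transcript length. Per kb of transcript *Igfbp5* was number 23 to 114 among clusters with a known length. It took 0.356 ± 0.0573% of all recovered reads in *Robo1+/+* and 0.528 ± 0.161% in *Robo1−/−* (SD, n = 3 each).

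*Igfbp7* (kgCluster19063, chr5:77778265-77837070) encodes a related protein that binds IGFs weakly. In *Robo1+/+* its values were 47.1, 50.9 and 95.7, and in *Robo1−/−* they were 127, 156 and 45.2. Replicates gh06 and gh12 were above every *Robo1+/+* library, and gh18, with 31 reads, was the lowest of all 6. The means were 64.6 ± 27 and 109 ± 57.3 (SD, n = 3 each), a log2 fold change of 0.65 (SE 0.55; 95% interval −0.66 to 1.95; adjusted p = 0.858, limma; exact permutation p = 0.4). The transcript is 58.62% GC, and the difference was larger with GC modelled, where gh18 turned from the lowest library into the highest. Whether the correction overshot there was not tested. On the GC-corrected log2 scale *Igfbp7* was at 5.29, 5.25 and 6.2 in *Robo1+/+* and at 6.55, 7.13 and 7.17 in *Robo1−/−*, so that the genotypes no longer overlapped (log2 fold change 1.37; exact permutation p = 0.1). Without gh18 the log2 fold change was 1.18, and leaving out gh12 gave 0.3, gh06 0.45, gh15 0.96, gh03 0.46 and gh09 0.52. *Igfbp7* shares 85 exon bases with *Polr2b* on the opposite strand, and 11 of its 1139 sequences of 75 bases also occur there. *Polr2b* had values of 1183 to 2202, and the part of its reads in the *Igfbp7* values was not tested.

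The other binding proteins were scarce. *Igfbp3* (kgCluster2960, chr11:7106089-7113926), the main carrier of IGFs in serum, was at 63.6, 11 and 33.8 in *Robo1+/+*, and at 18.4, 31.1 and 35 in *Robo1−/−*. The *Robo1−/−* libraries all lay within the wide *Robo1+/+* range, and the log2 fold change was −0.09 (95% interval −1.65 to 1.48; adjusted p = 0.97, limma), 0.05 after the GC correction, −0.26 without gh18, −0.75 without gh09 and 0.47 without gh03, so no direction can be given. *Igfbp4* (kgCluster4195, chr11:98902558-98913969), an inhibitory binding protein that the protease PAPP-A cleaves, was at 16.5 to 41.3 in *Robo1+/+*, at 14.6 to 32.1 in *Robo1−/−*. Its log2 fold change was −0.19 (95% interval −1.37 to 0.98; adjusted p = 0.913, limma), 0.54 after the GC correction, 0.08 without gh18, 0.16 without gh15 and −0.48 without gh09, so its direction also turns on single libraries. *Igfbp2* (kgCluster423, chr1:72871077-72899048), whose protein can also attach to integrins, had 5 to 22 reads per library, 13.8 ± 12.6 normalized in *Robo1+/+* and 10.5 ± 4 in *Robo1−/−* (SD, n = 3 each), and did not pass the filter. *Igfbp6* (kgCluster9096, chr15:101974793-101979942), which prefers IGF-II, also did not pass, with 5, 2 and 2 reads in *Robo1+/+* and 3, 2 and 0 in *Robo1−/−*. Only gh03 and gh06 reached 3 reads for it, so a difference was not detectable at this depth.

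**Figure D2:**
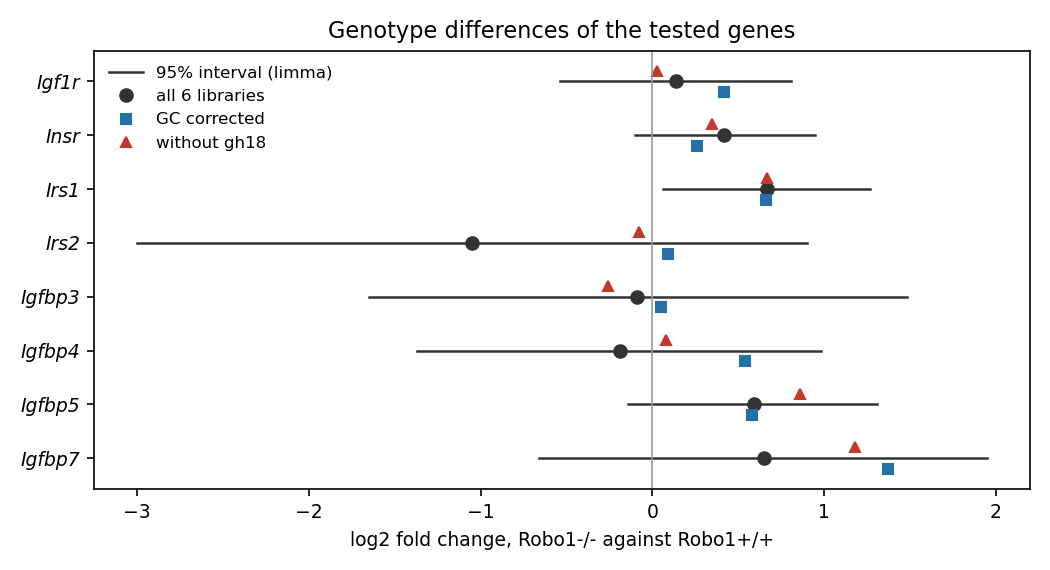
Log2 fold change of *Robo1−/−* against *Robo1+/+* for the 8 tested genes, with the 95% interval from limma over all 6 libraries (circles and lines), after the GC correction (squares) and without gh18 (triangles). The interval of *Irs1* alone lies above 0, and the values of *Irs2* range from −1.05 to 0.09.

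Levels were compared between genes as RPKM, averaged over all 6 libraries. *Igfbp5* was highest at 736 ± 239, followed by *Igf1r* at 16.4 ± 3.44 and *Insr* at 12.3 ± 2.22 (SD, n = 6 each). Its lowest library (523) was far above the highest of *Igf1r* (21.2), a 44.8-fold difference of the means. The substrates followed, *Irs1* at 6.69 ± 2.12 and *Irs2* at 6.6 ± 3.56, and then *Igfbp7* at 5.19 ± 2.76. The ranges of the receptors, the substrates and *Igfbp7* overlapped with their neighbours in this order. Compared within the same library, *Igf1r* was above *Insr* in 5 of 6 and *Insr* above *Irs1* in 6 of 6. *Irs1* was above *Irs2* in 2 of 6, and *Irs2* above *Igfbp7* in 4 of 6. In the mean, *Irs2* was above *Irs1* when gh18 was left out and in *Robo1+/+*. *Igfbp7* was 5.35-fold above *Igfbp3* (0.971 ± 0.565), with no overlap of their libraries (at least 2.63 against at most 1.97). *Igfbp4* (0.867 ± 0.364), *Igfbp2* (0.679 ± 0.494) and *Igfbp6* (0.166 ± 0.147) completed the order, and the range of each overlapped with its neighbour. Within the same library, *Igfbp3* was above *Igfbp4* in 2 of 6, *Igfbp4* above *Igfbp2* in 4 of 6 and *Igfbp2* above *Igfbp6* in 6 of 6. The order also turns on the gene model, because the annotated *Igf1r* and *Irs2* transcripts hold little beyond the coding sequence (4181 bases for 4107 coding, and 4024 for 3963). Per kb of coding sequence, *Insr* came before *Igf1r* and *Igfbp7* before *Irs2*, and *Igfbp5* was again the highest.

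**Figure D3:**
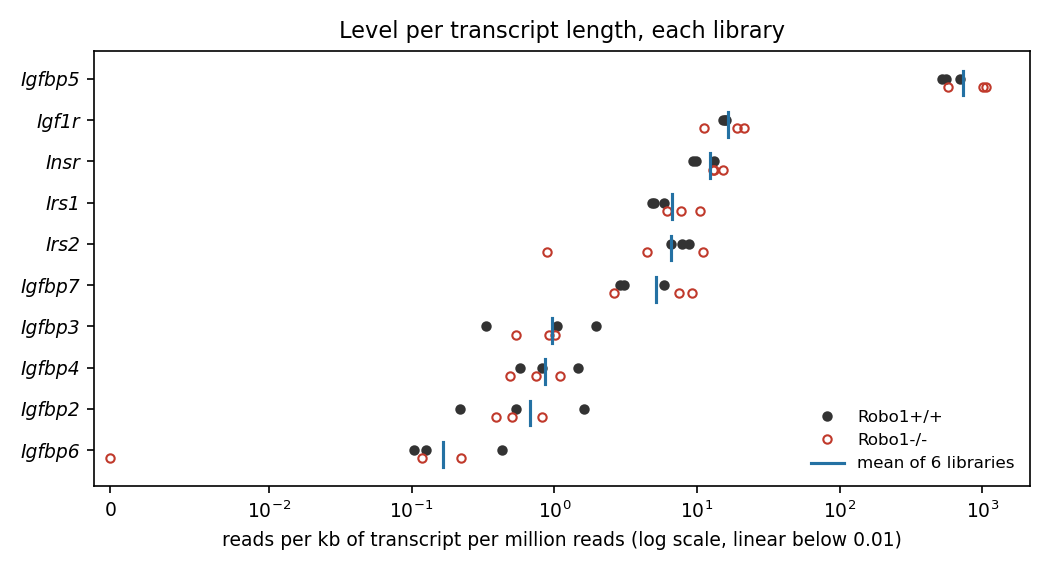
Level per transcript length (RPKM; log axis, linear below 0.01) of each gene in each library, with filled points for *Robo1+/+*, open points for *Robo1−/−* and a bar at the mean of 6 libraries. *Igfbp5* lies between 523 and 1059, and *Igf1r*, the next gene, between 11.2 and 21.2.

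*Igfbp5* made up 98.4% to 99.4% of the summed per-kb level of the 6 binding proteins in each library. Its level was 61-fold to 163-fold the sum of the other 5. The share was 98.8 ± 0.539% in *Robo1+/+* and 99 ± 0.193% in *Robo1−/−* (SD, n = 3 each), so that *Igfbp5* was nearly the whole of the binding protein message in both genotypes, gh18 included (99.2%).

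*Igfbp2* and *Igfbp5* are neighbours on chromosome 1, transcribed toward each other with 5457 bases between their annotated ends, yet the per-kb level of *Igfbp5* was 326 to 3196 times that of *Igfbp2* in the same library. The 250 bases upstream of each start in RefSeq are shown because these adjacent genes differed so much in level. The sequences are from RefSeq (table build GRCm38.p6), which held 1 entry for *Igfbp5* and 2 for *Igfbp2*, of which the outer one is given, and each matched NCBI37/mm9 at 1 place, chr1:72870804-72871053 on the plus strand for *Igfbp2* and chr1:72921440-72921689 on the minus strand for *Igfbp5*. The RefSeq starts differ from those of the GENCODE positions given for the genes. There *Igfbp5* starts at 72921458, inside the window shown, and *Igfbp2* at 72871077, beyond the end of its window. The sequences are written 5′ to 3′, and the capitals mark TATTTAA.
Igfbp2: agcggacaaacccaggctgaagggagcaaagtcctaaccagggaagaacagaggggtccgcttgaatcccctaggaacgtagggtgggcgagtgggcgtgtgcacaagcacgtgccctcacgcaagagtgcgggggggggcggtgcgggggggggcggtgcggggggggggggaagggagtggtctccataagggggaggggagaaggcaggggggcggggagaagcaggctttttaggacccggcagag
Igfbp5: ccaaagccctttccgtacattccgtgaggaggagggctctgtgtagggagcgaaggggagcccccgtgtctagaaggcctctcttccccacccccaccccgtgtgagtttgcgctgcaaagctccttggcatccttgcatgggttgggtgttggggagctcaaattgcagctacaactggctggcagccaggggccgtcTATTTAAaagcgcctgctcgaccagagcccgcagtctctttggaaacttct
Both strands were searched for TATAAA, the usual form of the TATA box, for its variant spelled TATTTAA, for GGGCGG, which is the core of the GC box, and for the palindrome GCCNNNGGC, a form bound by AP-2 proteins. *Igfbp5* had TATTTAA from position −51 and the palindrome from position −64, counted from the RefSeq start. These letters are in 4.18% and 13.7% of the 32851 promoters of the same length. *Igfbp2* had 3 copies of GGGCGG, which 32.7% of promoters hold, and neither had TATAAA (12.4% of promoters). The GC content was 67.2% for *Igfbp2* and 58.8% for *Igfbp5*, against a median of 52.4% over all promoters. The inner *Igfbp2* entry, not printed, held none of these motifs, and its GC content was 56.4%, below that of *Igfbp5*. These matches describe the letters of the windows only. *Pinc*, a long noncoding RNA whose cluster number (428) follows that of *Igfbp5* (424) closely, had 42, 137 and 105 in *Robo1+/+* and 200, 527 and 204 in *Robo1−/−*.

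Other genes of the pathway came from a list of 57, of which 54 were in the table and 48 were tested. None passed limma at an adjusted p under 0.05, and 2 were higher and 0 lower in *Robo1−/−* at an unadjusted p under 0.05 (4.17%, against 1.69% of all tested genes). *Enpp1*, whose product inhibits the insulin receptor, had 201, 252 and 303 in *Robo1+/+* and 330, 493 and 552 in *Robo1−/−*. Its log2 fold change was 0.85 (95% interval 0.14 to 1.55), 0.65 after the GC correction and 0.7 without gh18. *Pik3r1*, a regulatory subunit of phosphoinositide 3-kinase that binds IRS proteins, had 3573, 2576 and 2478 in *Robo1+/+* and 3798, 3869 and 5180 in *Robo1−/−*, with a log2 fold change of 0.58 (95% interval 0.02 to 1.14). For both genes the *Robo1−/−* libraries were all above the *Robo1+/+* libraries, but for *Pik3r1* they overlapped after the GC correction (log2 fold change 0.37). *Pik3r1* was no longer at an unadjusted p under 0.05 after that correction or without gh18 (0.43). With the correction the 2 genes were *Enpp1* and *Phlpp1*, a phosphatase of AKT kinases. The log2 fold change of *Phlpp1* was 0.36 before the correction and 0.75 after it, when gh18 was its highest library, and 0.43 without gh18.

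Over the list, genotypes did not overlap for 3 genes higher (6.25%, against 4.83% of all tested genes) and 5 lower (10.4%, against 4.58%) in *Robo1−/−*, and the median log2 fold change was −0.02. The lower genes were *Igfals*, *Grb7*, *Akt1*, *Rptor* and *Gsk3a*, which were named after their values were seen, and gh18 was the lowest library for each. After the GC correction 5 genes were higher (10.4%, against 3.41% of all genes) and 1 lower (*Grb7*; 2.08%, against 3.12%), with a median of 0.05. *Akt1*, a kinase downstream of phosphoinositide 3-kinase, had 3165, 3209 and 2909 in *Robo1+/+* and 2865, 2410 and 508 in *Robo1−/−*, with a log2 fold change of −1.02 that was −0.2 after the GC correction and −0.23 without gh18. Leaving out gh18 gave 4 of 48 genes at an unadjusted p under 0.05, when the share of all tested genes was 4.23%. *Stc2* and *Enpp1* were higher in *Robo1−/−*, with log2 fold changes of 1.06 and 0.7, and *Stc1* was lower (−0.94). *Igf2* was lower too, but with 2 reads in gh06 and 0 in gh12 it has no fold change that can be given.

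By role, the ligands had few reads per library, 4 to 28 for *Igf1* and 0 to 46 for *Igf2*. *Igf1* had 5.09, 19.6 and 4.69 in *Robo1+/+* and 32.2, 3.66 and 24.8 in *Robo1−/−*, and *Igf2* had 11.4, 3.14 and 24.4 in *Robo1+/+* and 2.3, 0 and 67.1 in *Robo1−/−*. *Igf2* was the highest ligand per kb over 6 libraries (0.275), but without gh18 it was at 0.13 and *Igf1* at 0.133. In both the libraries of each genotype were spread too widely to order the genotypes, and *Ins1* and *Ins2* had no row in the table. Of the other receptors, *Igf2r*, which clears IGF-II from the cell surface, was at 31.4 per kb. Its values were 3041 to 4204 in *Robo1+/+* and 3152 to 4635 in *Robo1−/−*, with a log2 fold change of 0.07 (95% interval −0.48 to 0.63), 0.12 after the GC correction and 0.23 without gh18. Of the other binding proteins and carriers, *Igfals*, the subunit that joins IGFBP3 in serum complexes, was the highest at 2.16 per kb, and *Igfbp1* had no row.

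Among the proteases of binding proteins and their inhibitors, *Stc2*, an inhibitor of the pappalysins, was the highest at 84 per kb, and *Pappa2* was under 3 reads in every library. *Stc2* had 2810, 4789 and 3464 in *Robo1+/+* and 9129, 6212 and 991 in *Robo1−/−*. Replicates gh06 and gh12 were above all *Robo1+/+* libraries and gh18 below them, so that the log2 fold change was 0.09 with gh18, 0.16 after the GC correction and 1.06 without gh18. *Stc1*, a related inhibitor, was at 164 to 225 in *Robo1+/+* and at 87.5, 121 and 328 in *Robo1−/−*, with log2 fold changes of −0.39, −0.67 after the GC correction and −0.94 without gh18. The highest genes of the remaining roles were *Crk* among adaptors (60.8 per kb), *Ptprf* among inhibitors at the receptor (70.8), *Akt1* in the kinase cascade (68.3) and *Foxo1* among transcription factors (12). Without gh18, *Foxo4* (12) was above *Foxo1* (11). *Irs4*, another gene of the IRS family, was under 3 reads in every library.

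Markers of other cells were followed beside these genes. The 7 markers of hormone-sensing luminal cells were all detected, with values that summed to 32885, 47902 and 36528 in *Robo1+/+*, and to 58588, 48900 and 49498 in *Robo1−/−*, with *Prlr* the highest value in every library. The sums did not overlap, with 47902 in gh09 just under 48900 in gh12, but per kb of transcript they did, at 751, 979 and 904 RPKM in *Robo1+/+* and 1115, 1159 and 679 in *Robo1−/−*. *Prlr* itself overlapped, with a log2 fold change of 0.49 that was 0.13 after the GC correction, when gh18 was its lowest library, and 0.41 without gh18. *Pgr* was the single gene of the list whose genotypes did not overlap (1721, 3003 and 3394 in *Robo1+/+*, 5481, 4124 and 3752 in *Robo1−/−*). Its log2 fold change was 0.76, 1.23 after the GC correction, when gh18 was its highest library, and 0.87 without gh18. The log2 fold change was 0.4 for *Esr1*, 0.19 for *Foxa1*, 0.11 for *Ly6a* and 0.85 for *Prom1*. *Cited1* went the other way, at −1.01, with 286 in gh18 and 2702 to 3954 in the other libraries. After the GC correction *Cited1* was at 0.03 and *Ly6a* at −0.01. The part of these cells in the differences of *Insr*, *Irs1*, *Igfbp5* and *Igfbp7* was not tested. Fibroblast markers reached 3 reads for 10 of 10 genes, which summed to 796, 850 and 735 in *Robo1+/+*, to 1070, 340 and 750 in *Robo1−/−*, with *Dcn* the highest value except in gh12, where *Pdgfra* was, and their libraries overlapped. Endothelial markers reached 3 reads in some library for 6 of 8 genes (*Emcn* had no row), which summed to 2490, 2274 and 1389 in *Robo1+/+*, to 1709, 1672 and 215 in *Robo1−/−*, with *Vwf* the highest value except in gh15 and gh12, where *Eng* was. Nearly all of this sum was *Vwf* and *Eng*, since *Pecam1*, which encodes CD31, was at most 89.8, *Plvap* at most 8.06, *Tek* at most 4.7 and *Kdr* at most 3.45, and *Cdh5* was under 3 reads in every library. For pericytes, 4 of 5 genes reached 3 reads, with *Notch3*, which luminal progenitors also express, the highest value, and the sum was 3222 to 3879 except in gh18 (718), while *Kcnj8* was under 3 reads in every library. Leukocyte markers reached 3 reads for 5 of 8 genes, of which 6 had a row, mostly *Cd68*, with sums of 118 to 161 in *Robo1+/+* and 96.3 to 123 in *Robo1−/−*, and *Ptprc*, which encodes CD45, was under 3 reads in every library. Of the adipocyte list 1 of 5 genes reached 3 reads (*Fabp4*, at most 3.92), and of the erythroid list 0 of 3 did (*Hbb-b1* had at most 2 reads), and the other genes of these lists had no row.

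For each tested member other than *Irs2*, the 3 genes whose log2 values were most like it over the 6 libraries were found among 13691 others by Pearson's r, as a description without a test. All of these values come from the same 6 libraries, with gh18 apart from the rest. *Igfbp5* was most like *S100a11*, *Foxi1* and *Rtn4ip1* (r = 0.994 each). *Insr* was most like *Senp7* (0.994), *Zfp704* (0.989) and *AV249152* (0.985), and *Irs1* like *Txnl4b* (0.955), *Dnajc1* (0.942) and *4930473A06Rik* (0.933). *Igf1r* was nearest to *AK142359* (0.964), *Zfp783* (0.962) and *5830427D03Rik* (0.961), and *Igfbp7* to *P2rx2* (0.971), *Reep2* (0.968) and *Msx2* (0.964). The scarce *Igfbp3* was nearest to *Sprr2a1* (0.981), *Lrp11* (0.981) and *2610002D18Rik* (0.962), and *Igfbp4* to *Prdm1* (0.975), *Eftud1* (0.964) and *6030419C18Rik* (0.952).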

How the data were processed

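Poly(A)+ RNA of sorted luminal progenitors was sequenced in 6 libraries, and genotypes were taken from the labels. The deposited table holds, for each known-gene cluster, a signal in which the authors had divided each read count by the size factor of its library, rounded to 2 decimals. The submitters' processing notes name Bowtie, TopHat, SAMtools and DESeq and the build mm9, and the study's methods name DESeq2. The counting tool, its strand setting and its rule for reads with several matches are not given in the sources used here. Each library's value of 1 read was found from its values, which were all whole reads within 0.1 read.

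Genes kept by filterByExpr of edgeR 4.0.16 on the recovered reads (13692) were compared as log2(value + 1) by limma 3.58.1 (R 4.3.3, trended empirical Bayes), with p-values adjusted by Benjamini-Hochberg over all of them. This test had been planned for normalized values, and edgeR's quasi-likelihood test for raw counts. Single members also had a two-sided exact permutation test. The code was tested on simulated data. The GC correction used a lowess curve (span 0.3) on transcript GC content. Positions, lengths and GC content came from GENCODE release M1 (NCBI build 37, the same assembly as mm9), where 87.7% of clusters were found by symbol and 0.7% by synonym.

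Named were the 10 members, *Robo1*, pathway genes with an unadjusted p under 0.05, the highest gene per kb of each role, pathway genes not detected and the 3 genes most like each tested member, which are not given for *Irs2*. Other genes named from the pathway list, *Igf1*, *Stc1*, *Igfals*, *Grb7*, *Rptor*, *Gsk3a*, *Phlpp1* and *Foxo4* among them, and *Pinc*, *Polr2b*, *Gm9747* and *9530052E02Rik* were chosen after their values or positions were seen. The members and all lists were chosen with earlier results of these data known. Alternatives were DESeq2 1.42.0, edgeR, TMM and upper-quartile scaling, pseudocounts of 0.5 and 5, no filter, at least 10 reads in every library, the GC correction, each library left out in turn and the GC correction without gh18.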

Additional observations from a re-analysis of the deposited data

How the results depend on the processing

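Of 128 log2 fold changes, for 8 tested members under 16 alternatives, 117 kept the direction found with all 6 libraries and limma, 11 reversed it, and none had an adjusted p under 0.05 (0.549 to 0.999). *Insr*, *Irs1*, *Igfbp5* and *Igfbp7* kept their direction in every alternative run. All of these runs reuse the same libraries, so they are not independent of each other. The GC correction without gh18 was chosen after seeing the data. With the GC correction the log2 fold change was 0.09 for *Irs2*, 0.05 for *Igfbp3* and 0.54 for *Igfbp4*. With the GC correction and gh18 left out it was 0.09 for *Irs2* and 0.16 for *Igfbp4*. With 1 library left out it ranged from −0.04 to 0.43 for *Igf1r*, from −0.75 to 0.47 for *Igfbp3* and from −0.48 to 0.16 for *Igfbp4*.

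DESeq2 gave 1 gene with an adjusted p under 0.05 (*RP23-282C23.3*, not a member), and every other alternative gave 0. The number of genes at an unadjusted p under 0.05, 231 with limma, was 415 with no filter, where more genes were tested, and 557 with the GC correction and gh18 left out. With 1 library left out it ranged from 117 to 879 (130 without gh03, 168 without gh09, 117 without gh15, 879 without gh06, 131 without gh12 and 579 without gh18). Members at that threshold numbered 2 with the GC correction (194 of all genes), 3 with the GC correction and gh18 left out, and 0 to 3 with 1 library left out (0 without gh03, gh09 or gh15, and 3 without gh18). Members whose genotypes did not overlap numbered 2 to 4 with 1 library left out (4 without gh18), each higher in *Robo1−/−* except 1 of 3 without gh06, while 14.1% to 30.3% of all tested genes did not overlap in either direction. Pathway genes at the unadjusted threshold numbered 4 without gh18, with or without the GC correction. Beyond fewer or more genes and libraries, the cause of these changes was not tested. No paired analysis was run, because the genotypes share no replicate number. Although the labels call the mice littermates, no match of pools by litter was used. The depth left *Igfbp2* and *Igfbp6* untested, and with 3 pools per genotype the permutation test cannot go below 0.1.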
